A study of Drosophila melanogaster with 2 samples.

Results

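The elav family of Drosophila melanogaster was taken here as the 5 genes elav, fne, Rbp9, Sxl and ssx, chosen by symbol and set against 13945 protein-coding genes. All 5 were found in the annotation, with elav, fne, Sxl and ssx on chromosome X and Rbp9 on 2L. The data are chromatin immunoprecipitation followed by sequencing (ChIP-seq) from whole embryos, males and females pooled and 0 to 24 hours old, of a repo-GFP strain. This strain carries an insertion of repo, which encodes the glial homeodomain transcription factor Repo, with green fluorescent protein (GFP) fused to the C-terminus, and an antibody against GFP was used. There is 1 group of 2 biological replicates, numbered 1 and 3; both carry the transgene, and no untagged or input sample was analysed here. Glia are a minority of the cells of a whole embryo, and the lists give no cell type for a peak.

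Proteins of this family carry RNA recognition motifs and bind uridine-rich RNA. Elav marks neurons and acts on alternative splicing and on 3' end processing of neuronal transcripts, and fne and Rbp9 encode related neuronal proteins, Rbp9 also acting in the ovary. Sxl is the master switch of sex determination: in females its protein directs the splicing of its own and of tra transcripts and represses msl-2. The gene ssx, whose name stands for sister of Sex lethal, encodes the protein most like Sxl. Sxl is known to be started early in female embryos from an establishment promoter and later, in both sexes, from a maintenance promoter that lies upstream of it.

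Peaks were read from 4 lists on the genome build dm6. These were each replicate's own 30000 entries, 30000 entries of the replicates pooled, and an optimal list. The optimal list holds the 2697 peaks kept by the authors after an irreproducible discovery rate (IDR) threshold. The lists of 30000 were deposited as peaks and background together, so an entry outside the optimal list may be background. All entries are called peaks below. A peak was counted for a gene when its summit lay between 2000 bp upstream of the gene's start and the gene's end. Signal is the authors' value per peak, on a scale that is not stated; it was read only within a list, and peaks are compared between replicates by rank. The lists hold no read counts, so depth is unknown and no value below carries an interval for it.

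In 2 of the 5 genes, elav and Sxl, the optimal list had a peak, and in fne, Rbp9 and ssx it had none. Over all protein-coding genes the share with an optimal summit by this rule was 19.7%. It was 19.1% of genes on X and 19.3% of those on 2L, and rose with interval length, to 28% of genes in the length decile of ssx, 30.7% in that of elav and Rbp9, and 41.3% in that of fne and Sxl. With 5 members, 2 cannot be set apart from these shares, and no test was made. The 5 optimal peaks were 2 at elav and 3 at Sxl; 2 or more such peaks were present in 7.82% of genes in the length decile of elav, and 3 or more in 9.68% of genes in that of Sxl.

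**Figure D1:**
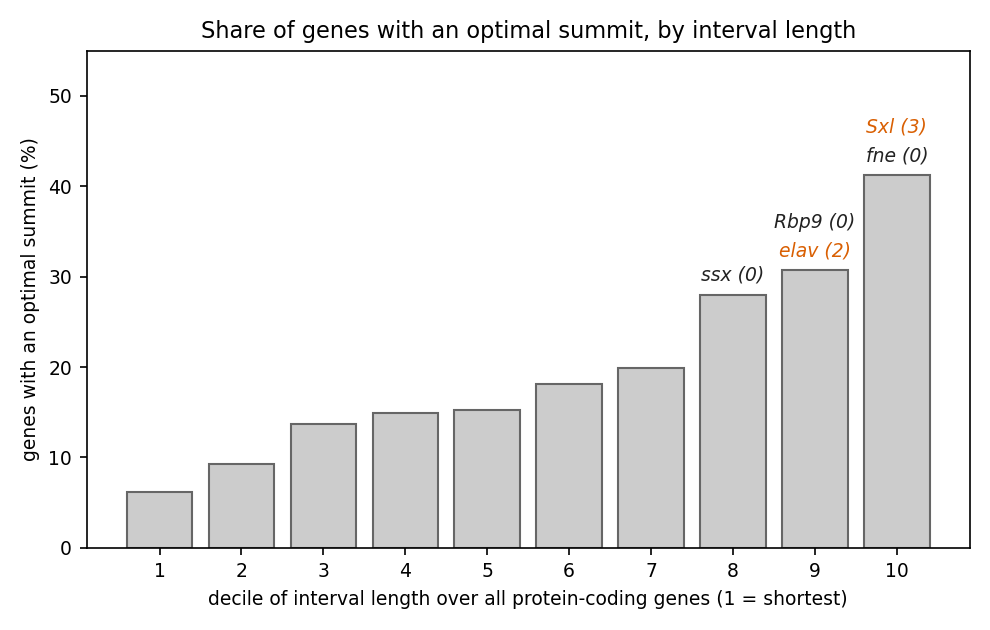
Percentage of protein-coding genes with an optimal summit (vertical axis) in each decile of interval length (horizontal axis, 1 the shortest). Gene names stand over their decile with their number of optimal peaks in brackets, orange where it is above 0; elav and Rbp9 share decile 9, and fne and Sxl decile 10.

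The sequences under the 5 optimal summits are shown because they are the only sites of the family in the authors' final list. Each run is the reference sequence of the RefSeq dm6 assembly within 100 bp of the summit, on the minus strand, from which both genes are transcribed, with bases of annotated exons left out. Capitals mark matches to the motifs described further on. The elav runs lie at chrX:523416-523616 (upstream of the gene) and chrX:522520-522720 (first intron). The Sxl runs lie at chrX:7098054-7098178 (immediately upstream of the first transcription start site, TSS), chrX:7096603-7096803 and chrX:7095589-7095789 (both intronic).
elav upstream: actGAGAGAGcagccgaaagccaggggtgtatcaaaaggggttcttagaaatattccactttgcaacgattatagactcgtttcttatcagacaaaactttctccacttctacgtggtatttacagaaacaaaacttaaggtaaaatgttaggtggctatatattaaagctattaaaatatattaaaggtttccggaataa
elav intron: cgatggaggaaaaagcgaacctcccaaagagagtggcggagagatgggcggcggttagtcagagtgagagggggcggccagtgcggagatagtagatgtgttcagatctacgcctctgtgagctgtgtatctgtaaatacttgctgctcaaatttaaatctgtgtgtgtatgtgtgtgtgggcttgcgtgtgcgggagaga
Sxl first start: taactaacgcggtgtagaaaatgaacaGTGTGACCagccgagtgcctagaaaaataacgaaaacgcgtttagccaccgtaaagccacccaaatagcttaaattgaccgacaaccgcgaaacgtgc
Sxl proximal intron: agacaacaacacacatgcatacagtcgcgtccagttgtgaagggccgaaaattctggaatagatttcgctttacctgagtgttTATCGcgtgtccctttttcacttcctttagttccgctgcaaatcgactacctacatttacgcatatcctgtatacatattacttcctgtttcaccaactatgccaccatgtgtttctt
Sxl distal intron: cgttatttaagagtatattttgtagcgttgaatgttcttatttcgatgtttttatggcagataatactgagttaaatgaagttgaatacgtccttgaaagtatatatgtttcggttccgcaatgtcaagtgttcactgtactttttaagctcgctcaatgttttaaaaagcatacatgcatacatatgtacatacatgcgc

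elav had the highest signal of the family and close ranks in the replicates. The gene (FBgn0260400) spans X 509235 to 523226 on the minus strand, with TSSs at 523226, used by 3 annotated transcripts, and at 520285, used by 1. Its promoter peak, at X 523391 to 523611, had its summit 290 bp upstream of the first TSS, with a signal of 260.0 that placed it at rank 280 among the optimal peaks. Its ranks were 283 in replicate 1 and 289 in replicate 3, whose summits lay 26 bp apart. The other peak, at X 522544 to 522695, was in the first intron, 606 bp downstream of the same TSS and 2335 bp upstream of the other. It had a signal of 189.8, rank 570, with ranks of 548 in replicate 1 and 608 in replicate 3 and summits 45 bp apart.

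Both elav peaks therefore stood in the same order in each replicate, the upstream one first. Their summits were 896 bp apart; 13.1% of optimal peaks had another optimal summit within 1000 bp. Their widths were 221 and 152 bp, below the most common width of 396 bp, as for 16.2% of optimal peaks. By highest signal elav ranked 370 among the 2751 genes with an optimal summit. Its 260.0 stood against a median of 134 over those genes. The first TSS of elav lies inside an intron of arg (X 509435 to 528028, plus strand), an arginase gene, and the non-coding lncRNA:enrr starts at the same base as elav. Both peaks are thus counted for those genes too, and the lists do not tell which gene a summit serves; the TSS of arg is at 509435, at the far end of elav.

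Sxl had 3 peaks over the first part of the gene, each lower than either elav peak. Neighbouring summits were 1014 and 1375 bp apart, and 19.5% of optimal peaks had another optimal summit within 1500 bp. By highest signal Sxl ranked 1140 among the 2751 genes with an optimal summit, with 152 against the median of 134. The gene (FBgn0264270) spans X 7074550 to 7098053 on the minus strand. It has 4 annotated TSSs: 18 transcripts start at 7098053, 1 at 7097768, 2 at 7097066 and 4 at 7092883. The annotation does not say which of them are the establishment and maintenance promoters. Each of the 3 optimal summits lay upstream of the start at 7092883, by 2806, 3820 and 5195 bp, and no pooled-list summit lay within 500 bp of that start.

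The strongest Sxl peak, at X 7095491 to 7095886, was intronic, 1377 bp downstream of the TSS at 7097066, with a signal of 152 and rank 918. It ranked 1950 in replicate 1 and 581 in replicate 3. The second, at X 7096505 to 7096900, was 363 bp downstream of the same TSS, with a signal of 115 and rank 1524; it ranked 3784 in replicate 1 and 1067 in replicate 3. The third, at X 7097880 to 7098275, covered the TSS at 7098053, with its summit 25 bp upstream of it, a signal of 102 and rank 1910. It ranked 1283 in replicate 1 and 5878 in replicate 3. The start-site peak thus came first of the 3 in replicate 1 and last in replicate 3, and the distal intronic peak ranked ahead of the proximal one in both.

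Of the 5 optimal peaks of the family, all had a matching peak in both replicates' full lists, as did 99.4% of optimal peaks. Both elav peaks and the strongest Sxl peak, 3 of the 5, ranked within the first 2697 of each replicate, against 69.5% of all optimal peaks. The rank in the lower-ranking replicate was 1.02 and 1.11 times that in the other at the elav peaks. It was 3.36, 3.55 and 4.58 times at the Sxl peaks, in order of falling signal. Over the 2681 optimal peaks matched in both replicates the median ratio was 1.53 and the upper quartile 2.13, so the 3 Sxl peaks lay above the upper quartile and the elav peaks below the lower quartile of 1.21. The replicates' summits at Sxl were 80, 62 and 54 bp apart, against a median of 24 bp over those peaks.

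**Figure D2:**
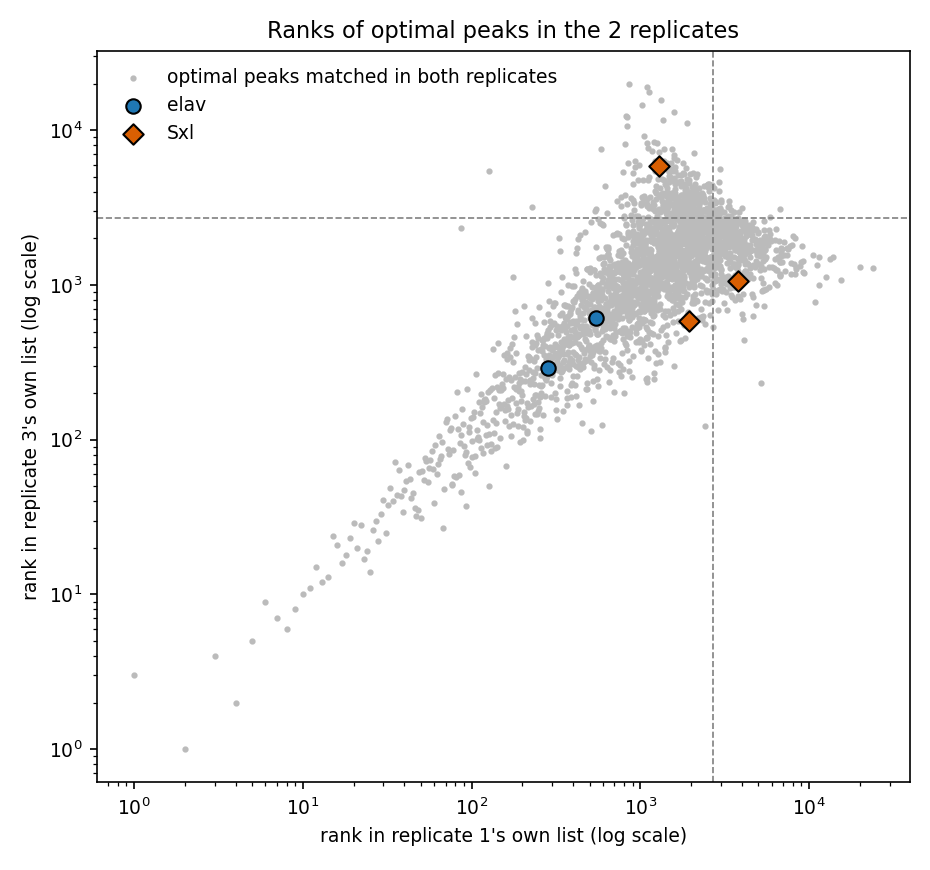
Rank in replicate 1's own list (horizontal axis) and in replicate 3's (vertical axis), both on log scales, for each optimal peak matched in both; circles are the 2 elav peaks and diamonds the 3 Sxl peaks. Dashed lines mark rank 2697. The elav peaks lie near equal ranks; the Sxl peaks lie to either side, at 1283 and 5878, at 3784 and 1067, and at 1950 and 581.

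By class, 3 of the 5 optimal summits were within 500 bp of a TSS of the gene they were counted for, 1 at elav and 2 at Sxl, and the other 2 were intronic. Over all optimal peaks, promoters held 55.1% and introns 29.5%. None of the 5 lay within 500 bp of a TSS of a neighbouring protein-coding gene. With only summits within 500 bp of a gene's own TSS, elav and Sxl still had a peak, as did 13.6% of protein-coding genes.

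Optimal peaks just outside the intervals were found upstream of both genes. One, in an intron of arg at X 526479 to 526874, lay 3451 bp upstream of elav, with a signal of 138 and ranks of 1680 in replicate 1 and 990 in replicate 3. The other, in an intron of CG4615 at X 7101491 to 7101886, lay 3636 bp upstream of Sxl, with a signal of 114 and ranks of 1493 in replicate 1 and 1667 in replicate 3. The nearest optimal summit to Rbp9 lay 8596 bp beyond its end, in the promoter of CG3165. For ssx the nearest was 17722 bp beyond its end, in the promoter of Rilpl. fne stood alone, with none within 162161 bp upstream or 180221 bp downstream.

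At fne, Rbp9 and ssx the pooled list of peaks and background had entries only below the optimal threshold, whose lowest signal was 84.0. The highest pooled-list signal was 66.2 at fne, rank 4214, 65.6 at Rbp9, rank 4288, and 50.6 at ssx, rank 7228. Their deposited −log10 q-values were 2.25, 2.19 and 1.13, against 3.72, the highest value in the list, at each of the 5 optimal peaks. At weaker peaks described below the value was lower. It was 0.249 at the fne peak near the TSS at 12938517. At the downstream ssx peak it was 0.493, and at the Rbp9 peak in lilli 0.212. The highest pooled-list signal of fne was above that of 72.2% of protein-coding genes, that of Rbp9 above 71.8% and that of ssx above 60.5%; genes with no peak count as lowest, and 73.4% of genes had a pooled-list summit. For Sxl this percentage was 91.8 and for elav 97.3.

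At fne (FBgn0086675, X 12917477 to 12950417, plus strand) the strongest of 5 pooled-list peaks was far from any start, at X 12947673 to 12948068 in the 3' UTR, 6599 bp from the nearest TSS. It came from 1 replicate: it ranked 2161 in replicate 3, within the first 2697, and had no matching peak in the 30000 of replicate 1. Of replicate 3's own 2697 highest peaks, 2.86% had no match in replicate 1's full list. The pooled-list peak 186 bp upstream of the TSS at 12938517, which 5 transcripts use, had a signal of 29.4 and rank 22628; it was matched in replicate 1, at rank 19870, and not in replicate 3. No summit of any list lay within 500 bp of the first fne TSSs at 12917477 and 12917484. By replicate 3's 2697 highest peaks alone, 3 of the 5 members had a peak, fne through this 3' UTR summit, as did 19.5% of protein-coding genes. By the 2697 highest of replicate 1 alone, 2 of the 5 did, as did 20.1% of protein-coding genes.

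At Rbp9 (FBgn0010263, 2L 2954762 to 2968434, plus strand) the strongest of 3 pooled-list peaks, at 2L 2957513 to 2957908, was intronic. Its summit was 800 bp downstream of the TSS at 2956911, which 4 transcripts use. It ranked 6975 in replicate 1 and 4372 in replicate 3, with summits 3 bp apart. The next, in the 3' UTR at 2L 2966929 to 2967324, had a signal of 49.8 and was matched only in replicate 3, at rank 3971; the nearest TSS was that of Ts, the thymidylate synthase gene, 2511 bp away. The last, with a signal of 28.0, lay 1570 bp upstream of Rbp9 in the 3' UTR of the neighbouring gene lilli and was matched in neither replicate.

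At ssx (FBgn0024987, X 1370580 to 1375257, plus strand) both pooled-list peaks were within 500 bp of its only annotated TSS. The upstream one, at X 1369979 to 1370374, had its summit 403 bp upstream of ssx, at the first base beyond the end of CG14770. It had a signal of 50.6 and ranks of 10418 in replicate 1 and 7346 in replicate 3, whose summits were 111 bp apart. The downstream one, 183 bp into the gene, had a signal of 37.3 and was matched in replicate 1, at rank 7092, and not in replicate 3.

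Over the family the pooled list held 23 peaks, of which 18 were not in the optimal list. Of these 18, 3 were at promoters, 2 in coding exons, 7 in 3' UTRs and 6 in introns. The shares over all such weaker pooled-list peaks were 26.4% at promoters, 25.4% in coding exons, 1.78% in 3' UTRs and 30.3% in introns. The class takes no account of strand. A long last exon of elav reaches the far end of the gene and runs opposite to arg. Of the 7 peaks in 3' UTRs, 3 were at elav. Only the elav peak at X 509951 to 510346 was matched in both replicates among those 7. The Rbp9 peak in lilli lay upstream of Rbp9, and the Sxl peak lay 745 bp upstream of Sxl, within CG4615. Of the 18, 7 were matched in both replicates, against 41.3% of all weaker pooled-list peaks. The pooled list held 4.38 peaks per 10 kb of interval at elav, 2.99 at ssx, 2.35 at Sxl, 1.91 at Rbp9 and 1.43 at fne. The medians over genes of the same length decile were 3.67 for elav and Rbp9, 4.37 for ssx and 2.18 for Sxl and fne. elav and Sxl were above their medians and the others below. The quartiles were 2.03 and 5.42 for elav and Rbp9, 1.63 and 6.37 for ssx, and 0.839 and 3.83 for Sxl and fne. Every member but Rbp9, which was below its lower quartile, lay between its quartiles.

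**Figure D3:**
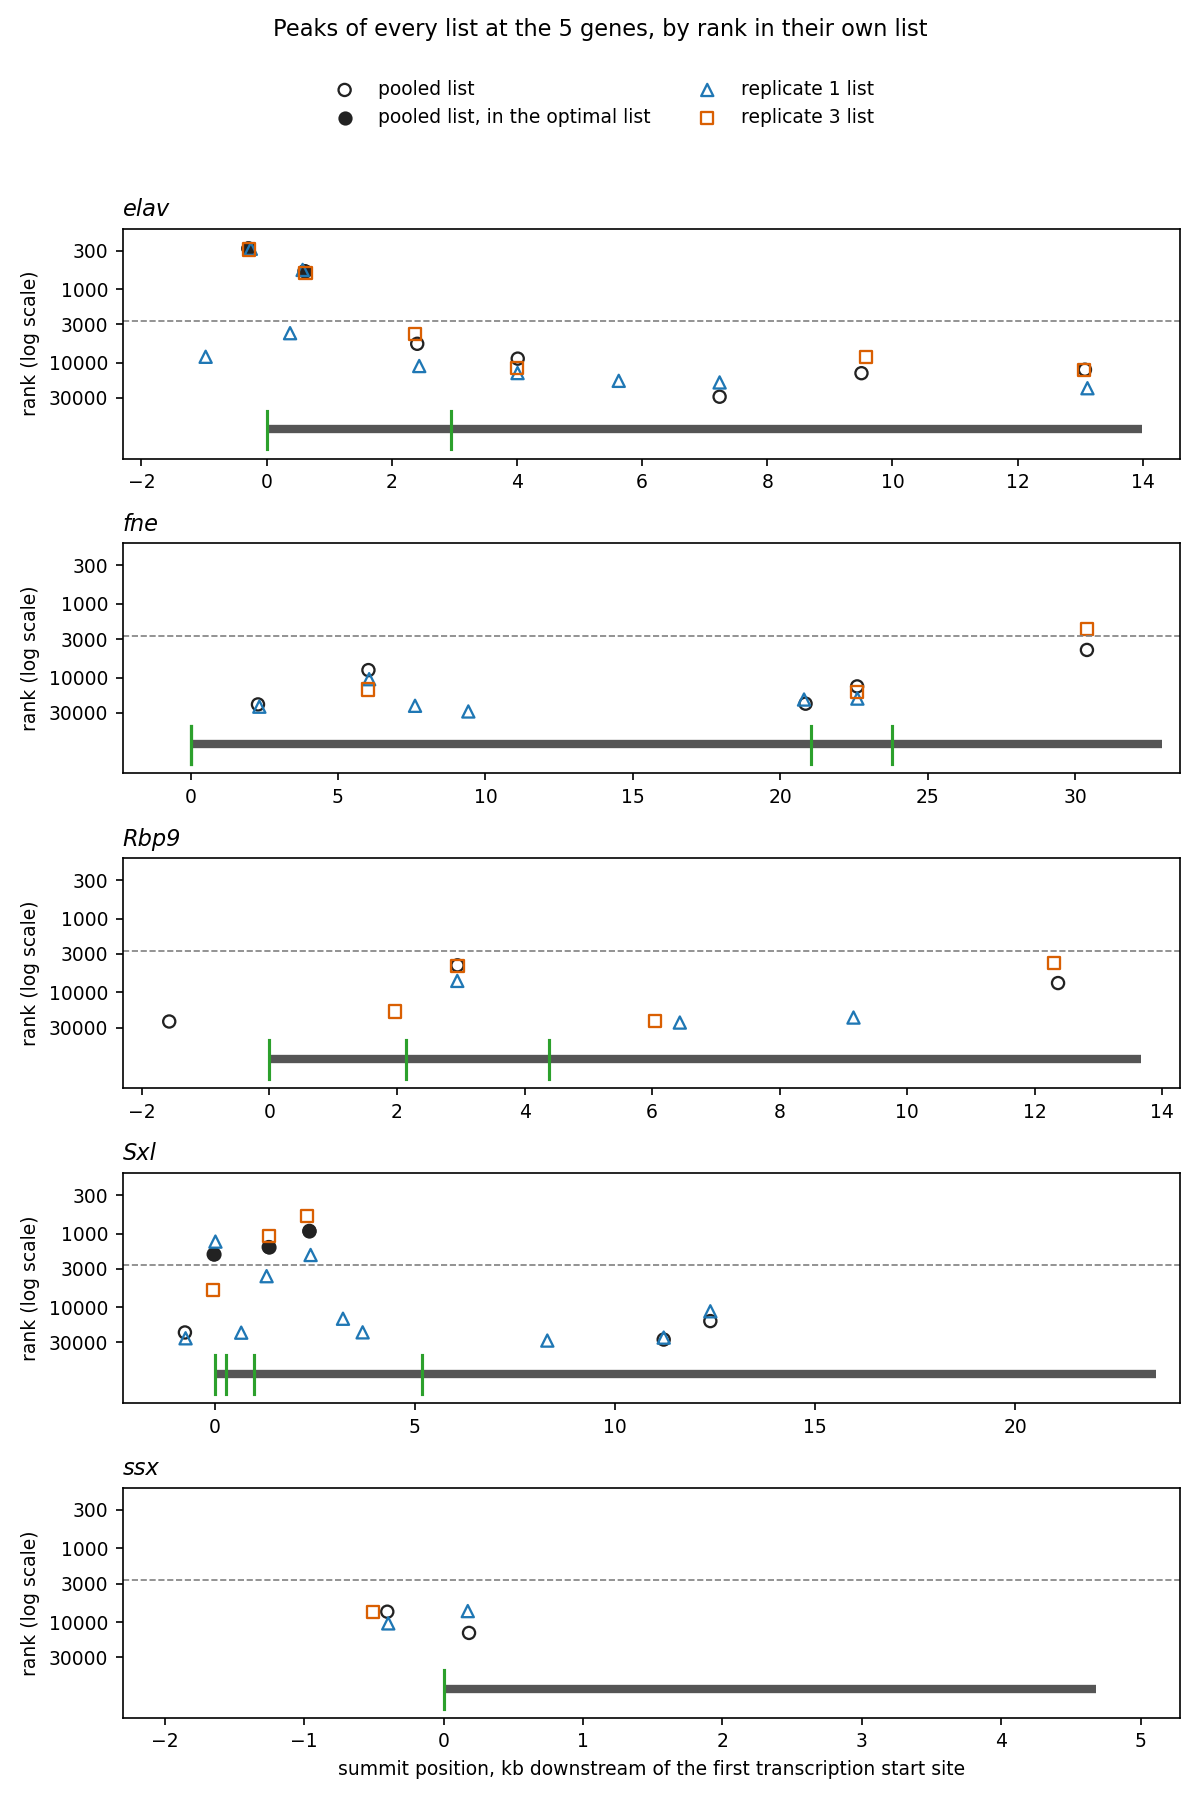
Summit position in kb downstream of each gene's first TSS (horizontal axis) and rank in the peak's own list (vertical axis, log scale, strongest at the top) for every peak counted at the 5 genes. Circles are pooled-list peaks, filled where they are in the optimal list; triangles are replicate 1 and squares replicate 3; the grey bar is the gene, green ticks are TSSs and the dashed line is rank 2697. Filled circles appear at elav and Sxl only.

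The replicates differed in how many peaks they listed at these genes, although both lists hold 30000. Replicate 1 had 30 and replicate 3 had 17, a ratio of 1.76, against 1.05 over all protein-coding genes. Sxl accounted for most of the difference, with 10 peaks in replicate 1 and 3 in replicate 3; at elav there were 9 and 6, at fne 6 and 3, at Rbp9 3 and 4 and at ssx 2 and 1. More peaks in replicate 1 than in replicate 3 were listed at 34.2% of protein-coding genes, and at 3.3% of genes in the length decile of Sxl the excess was at least 7, as at Sxl. Of the 30 peaks in replicate 1, 12 had a summit that fell within one of the peaks of replicate 3. The 7 Sxl peaks of replicate 1 without such a match ranked between 11350 and 28367. The elav list of replicate 1 also had peaks at ranks 3966 and 8298, between the optimal ones and upstream of them, that replicate 3 lacked.

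Of 13 short motifs searched on both strands within 100 bp of the summit, 3 of the 5 windows held 1 each, and the median optimal window also held 1. GAGAGAG, the GAGA factor site, was in the elav upstream window, 91 bp from the summit, where 5.3% of all optimal windows hold it. GGTCACAC, the site of the promoter factor M1BP, was in the window of the first Sxl start, 66 bp from the summit; 3.11% of optimal windows hold it. CGATA, bound by the insulator protein Beaf-32, was in the window of the proximal Sxl intron peak, 13 bp from the summit, and 31.5% of optimal windows hold it. These windows were centred on pooled-list summits. CGATA also lay within 100 bp of both replicates' own summits. GGTCACAC, at X 7098144 to 7098151, did so in replicate 3 (summit 7098090) and not in replicate 1 (7098036). GAGAGAG, at X 523607 to 523613, did so in neither (523478 in replicate 1 and 523504 in replicate 3). The elav intron and the distal Sxl intron windows held none of the 13. Windows of pooled-list peaks outside the optimal list held GAGAGAG in 4.15%, GGTCACAC in 1.2% and CGATA in 22.4%.

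The motif reported for Repo, CAATTA, was in none of the 5 windows. It is held by 17.4% of optimal windows and 12.9% of windows of pooled-list peaks outside the optimal list. The homeodomain sites TAATTA (12.1% of optimal windows) and TAATGA (11.5%) were also not in these windows. The same held for the Dref site TATCGATA (4.93%), which contains CGATA, for the Zelda site CAGGTAG (0.964%) and for the GATA site AGATAAG (2.08%). The E-boxes CAGGTG (6.04%), CAGCTG (10.6%) and CACGTG (3.04%) and the TATA box TATAAA (26.1%) had no match either. GC content was 34.8% in the elav upstream window and 52.2% in the elav intron window. In the Sxl windows it was 44.8% at the first start, 42.3% in the proximal intron and 32.8% in the distal intron; the median optimal window had 38.8%.

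Other genes whose highest optimal peak ranked most like that of elav in the 2 replicates, by distance of log10 rank, were Toll-7, bmm and Tdrd3. Toll-7, a Toll family receptor gene, ranked 267 in replicate 1 and 276 in replicate 3, and bmm, a lipase gene, and Tdrd3 share a peak that ranked 290 in replicate 1 and 268 in replicate 3. For Sxl they were pyx, CG33229 and dos. pyx and CG33229 share a peak that ranked 2025 in replicate 1 and 619 in replicate 3. The peak counted for dos, an adaptor gene of receptor tyrosine kinase signalling, ranked 1814 in replicate 1 and 551 in replicate 3, and it lay within 500 bp of the TSS of RpL8.

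Among 24 other RNA-binding genes with roles in the nervous system, 12 (50%) had an optimal summit, against 19.7% of all protein-coding genes. The highest signals were at brat (312), mbl (232), shep (196), Rbfox1 (193) and pum (185). brat encodes a translational repressor that restrains neuroblast growth, pum a Pumilio family repressor, and mbl and Rbfox1 splicing regulators. brat had 4 optimal peaks, and shep and pum 3 each. In 3 of the 12 the highest peak was in the promoter class. That of heph was at the TSS of CG2003, 2950 bp from the nearest heph TSS. Of the 24 genes, 4 had a summit within 500 bp of an own TSS, against 13.6% of protein-coding genes. These lists were not matched for length, and several of these genes are long.

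Of 14 genes of sex determination and dosage compensation, which act downstream of or beside Sxl, 4 (28.6%) had an optimal summit, against 19.7% of all protein-coding genes. They were Unr (159), which acts with Sxl on msl-2, the non-coding lncRNA:roX2 (108), tra2 (103) and fru (89.0). At Unr the summit was 41 bp from its own TSS; at lncRNA:roX2 and tra2 it was 1346 and 1112 bp away and within 500 bp of the TSS of nod and of CG12868. tra, dsx and msl-2, the classical targets of the pathway, had none. By either replicate's 2697 highest peaks alone, 2 of the 14 had a peak, against 19.5% of protein-coding genes by replicate 3 and 20.1% by replicate 1.

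Of 18 genes that act on the Sxl promoters or on the splicing of its transcript, 5 (27.8%) had an optimal summit, each in a promoter, against 19.7% of all protein-coding genes. They were gro (391), a corepressor, Hakai (183) and fl(2)d (134), both of the machinery that methylates adenosines in RNA, Stat92E (114), a transcription factor, and snf (84.4), a splicing factor. gro ranked 107 in replicate 1 and 115 in replicate 3. snf, at rank 2679 of the 2697 optimal peaks, ranked 1890 in replicate 1 and 4869 in replicate 3. The snf summit was also within 500 bp of the TSS of Cdk7, and that of fl(2)d within 500 bp of the TSS of CG13339. The X-linked signal elements sisA, sc, upd1 and run had none. By the 2697 highest peaks of replicate 1 alone, 8 of the 18 had a peak, against 20.1% of protein-coding genes. By those of replicate 3 alone 6 did, against 19.5%.

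Of 11 genes whose transcripts Elav is known to process, 7 (63.6%) had an optimal summit, against 19.7% of all protein-coding genes, which were not matched to them for length. The highest were bun (223), pum (185), nej (159), AGO1 (150) and Nrg (104), and bun and pum had 3 peaks each. Nrg encodes a neural adhesion protein; ewg and arm, which are classical splicing targets of Elav, had no optimal summit. Of 16 neuronal genes, 2 (12.5%) had one, against the same 19.7%: ChAT (155), which makes acetylcholine, and nSyb (117), a synaptic vesicle gene. The list was named pan-neuronal, although some of its genes, such as ChAT, VGlut and Gad1, belong to a single transmitter. The ChAT summit was in an exon of another kind, 14435 bp from the nearest ChAT TSS. That of nSyb was 1839 bp from the nSyb TSS but inside 500 bp of those of Bgb and Mettl2. None of the 16 had a summit within 500 bp of an own TSS, as 13.6% of protein-coding genes did. The count of this list turned on the interval: it was 1 of 16 with 1000 bp upstream, against 17.8% of protein-coding genes, and 5 of 16 with 5000 bp upstream, against 25.7%.

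**Figure D4:**
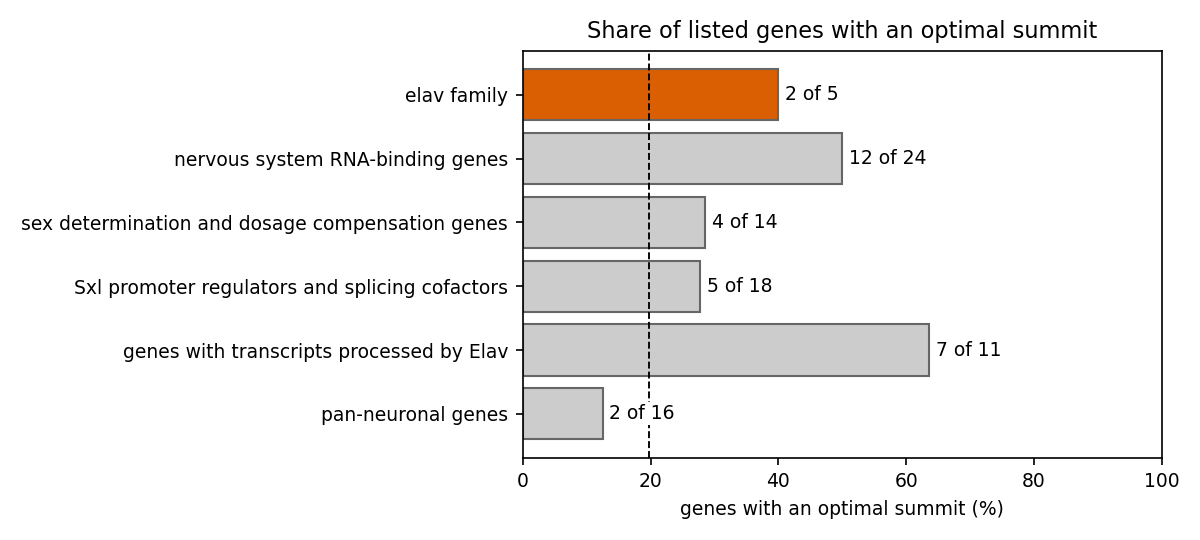
Percentage of the genes of each list with an optimal summit (horizontal axis), with the counts beside the bars; the orange bar is the elav family with 2 of 5. The dashed line is the share over all protein-coding genes, 19.7%.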

How the data were processed

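ChIP-seq peak lists of Repo-GFP whole embryos, 1 group of 2 replicates, were read as deposited on dm6. Per the text deposited beside the lists, the replicate and pooled lists hold peaks and background made as input for IDR, and the optimal list was kept by the authors after IDR thresholding. How reads were aligned, how peaks were called and which IDR threshold was set is not given in the sources used here. Every deposited list gives a signal per peak, the −log10 of a q-value and the summit's offset from the peak start. Lists on dm3 were not used, since coordinates were not converted between builds.

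Summits were placed on Ensembl genes of dm6 and classed, first match counting, as promoter (within 500 bp of a protein-coding TSS), UTR or coding part of an exon, exon of another kind, intron or intergenic. A pooled-list peak matched a replicate when its summit lay inside a peak of that replicate's list. Sequences came from the RefSeq genome of the same build. Python 3.11.15 with pandas 2.3.3, numpy 2.4.6 and matplotlib 3.10.9 was used, and the interval, class and motif functions were tested on planted positions. No test was made: the lists hold no counts and there is 1 group, so shares over all genes or peaks stand as background. The 2 replicates are labelled biological replicates, and peaks of a gene are not replicates of each other.

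The members, the 5 gene lists and the 13 motifs were chosen with earlier results of these data known. Of 83 list genes, 82 were matched by symbol; the other was not analysed here. The text names each member with every optimal peak, genes with a TSS near such a summit, up to 5 bound genes per list by highest signal, the genes with most optimal peaks, and the 3 genes nearest in rank to each bound member. List genes without a peak, the other genes around the members and weaker peaks were named after their values were seen. Alternatives changed the list, the replicate, the interval, the promoter distance, the overlap and the motif window.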

Additional observations from a re-analysis of the deposited data

How the results depend on the processing

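elav and Sxl had a peak under each of the 7 alternatives tried for that count, and fne joined them by replicate 3's highest 2697 peaks alone. The settings of 5000 bp upstream and of any peak base in the interval contain the main rule, so they could not lose a gene. Over the 7 settings, 11.3% to 25.7% of protein-coding genes had a peak. Among the 1348 optimal peaks of highest signal the members held 3 peaks in place of 5, of which 1 was at a promoter in place of 3, and 1 motif had a match in place of 3. With a promoter taken as within 250 bp of a TSS, 1 of the 5 peaks was at a promoter. With motif windows of 50 bp either side 1 motif had a match, and with windows of 200 bp either side 4 did. Of the 82 matched genes in the 5 lists, 29 had an optimal summit, against 19.7% of protein-coding genes. Among those 1348 peaks 15 did, against 11.3%, and with only summits within 500 bp of an own TSS 15 did, against 13.6%. Leaving out a replicate gave 0 to 1 motifs with a match. It put the strongest elav peak at 0.943% to 0.963% of a replicate's list, against 0.933% of the pooled list. The distal intron peak of Sxl, its strongest in the pooled list at 3.06%, was at 1.94% without replicate 1 and 6.5% without replicate 3. In replicate 1 the start-site peak of Sxl ranked higher, at 4.28%. No paired analysis was possible because the series has 1 group and no test was made. Depth is unknown, so a peak missing from a list may lie below what that list could hold.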
